A study of Mus musculus with 3 samples.

Results

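The cell cycle genes described here were 45 genes taken by symbol out of 55418 gene symbols quantified. They comprised 10 genes of the G1 phase, 13 of S phase, 20 of G2 and mitosis (G2/M) and 2 inhibitors of cyclin-dependent kinases (CDKs). The rule listed the symbols by name and used no measured value, though the list was drawn up with earlier results of these data known, and each was given a phase from its textbook role. Cyclin A2 (Ccna2), which acts in S as well as in G2, was counted with G2/M. All 45 symbols were found in the 3 libraries.

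Macrophages derived from the bone marrow of C57BL/6J mice were treated with lipid A at 100 ng/ml for 90 min, and RNA was taken from their cytosolic fraction. The 3 libraries formed this 1 group and were numbered as biological replicates 1, 2 and 3, each from 1 µg of total RNA depleted of ribosomal RNA. The labels named the same donor for all 3 and recorded neither age nor sex, and nothing in them says whether the replicates were separate cultures. p-values therefore measure only the spread between these libraries, which may be technical. Untreated cells and the nuclear fraction were not analysed here, so each comparison is between genes within a library or between the replicate libraries.

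The libraries held 33821479, 47843161 and 59390843 expected counts in replicates 1, 2 and 3. Levels are given in TPM, a transcript abundance unit that divides by transcript length and so allows genes to be compared within a library. The reference of a library was its median TPM over the 8747 protein-coding genes that averaged 1 TPM or more, and it lay at 7.38, 6.08 and 6.21 TPM in replicates 1, 2 and 3. A gene was called above or below this reference where log2(TPM + 0.1) differed from it by at least 1 unit with an adjusted p under 0.05 in a one-sample limma test over 13327 genes. Of all genes tested, 20.5% were called above the reference and 50.6% below it. All 8 macrophage markers were called above, with Mertk, an efferocytosis receptor, the lowest of them at 20.6 ± 0.961 TPM (SD, n = 3). Markers of granulocyte-monocyte progenitors summed to 1.59, 1.30 and 1.64 TPM over 8 genes in replicates 1, 2 and 3, and those of T, NK and B cells to between 0.02 and 0.17 TPM over 8 genes. Neutrophil markers summed to 46.4, 27.5 and 45.3 TPM over 8 genes, mostly S100a8 and S100a9, while Ly6g was listed at 0 in every library. The median of that list was 1.98 TPM, and of the 6 genes tested 1 was called above and 3 below.

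In the mammalian cell cycle, D-type cyclins with Cdk4 and Cdk6, followed by E-type cyclins with Cdk2, phosphorylate the retinoblastoma protein in G1, which frees E2F factors to transcribe genes of DNA replication. Genes of G2 and mitosis are transcribed later. This is largely through promoters that carry CCAAT boxes bound by NF-Y and a cell cycle genes homology region (CHR). The CHR is bound by the DREAM and MuvB complexes, of which DREAM keeps G2/M genes silent in resting cells. Macrophages grown from bone marrow divide in response to colony-stimulating factor 1, and lipopolysaccharide, of which lipid A is the active moiety, is known to halt that division in culture.

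The promoters of the members were read first, since the rule for choosing the genes did not use them. RefSeq windows (GRCm38.p6, 250 bases before to 50 after the start) were matched by symbol for 36 of the 45 members, the other 9 being Aurkb, Ccna2, Ccnd1, Ccnd2, Ccne2, Cdc25c, Mcm4, Rb1 and Tpx2. Both strands were searched for CCAAT, for the CHR letters TTTGAA or TTCGAA, and for the E2F letters TTTCCCGC, TTTGGCGC, TTTCGCGC or TTTGCCGC. The stretches below are the 180 bases before the start, 5′ to 3′ on the strand of the gene, with every match on either strand in capitals. They were chosen after the matches were seen, to set 6 G2/M promoters with CCAAT and CHR matches beside 3 S promoters with E2F matches and a G1 promoter without any of these letters.
Ccnb2 promoter, chr9:70421555-70421734, minus strand: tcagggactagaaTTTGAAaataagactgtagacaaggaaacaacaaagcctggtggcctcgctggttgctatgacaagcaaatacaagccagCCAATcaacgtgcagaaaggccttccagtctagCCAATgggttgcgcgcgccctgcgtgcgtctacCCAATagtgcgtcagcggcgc
Cdk1 promoter, chr10:69352913-69353092, minus strand: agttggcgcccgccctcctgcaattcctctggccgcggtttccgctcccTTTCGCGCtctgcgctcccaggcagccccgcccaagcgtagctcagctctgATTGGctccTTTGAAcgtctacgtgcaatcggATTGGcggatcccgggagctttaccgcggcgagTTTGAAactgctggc
Top2a promoter, chr11:99024190-99024369, minus strand: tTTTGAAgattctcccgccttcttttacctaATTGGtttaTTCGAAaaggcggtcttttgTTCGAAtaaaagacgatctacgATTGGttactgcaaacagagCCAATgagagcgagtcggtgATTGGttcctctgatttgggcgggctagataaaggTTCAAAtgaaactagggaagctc
Kif11 promoter, chr19:37376202-37376381, plus strand: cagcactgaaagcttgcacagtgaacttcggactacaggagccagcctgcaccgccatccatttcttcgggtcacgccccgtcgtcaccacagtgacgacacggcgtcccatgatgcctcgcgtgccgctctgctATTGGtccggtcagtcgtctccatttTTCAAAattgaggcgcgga
Cdc20 promoter, chr4:118437344-118437523, minus strand: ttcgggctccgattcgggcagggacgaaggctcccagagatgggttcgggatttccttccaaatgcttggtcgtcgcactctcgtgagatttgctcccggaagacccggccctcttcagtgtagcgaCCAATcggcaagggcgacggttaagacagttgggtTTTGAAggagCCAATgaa
Mki67 promoter, chr7:135716380-135716559, minus strand: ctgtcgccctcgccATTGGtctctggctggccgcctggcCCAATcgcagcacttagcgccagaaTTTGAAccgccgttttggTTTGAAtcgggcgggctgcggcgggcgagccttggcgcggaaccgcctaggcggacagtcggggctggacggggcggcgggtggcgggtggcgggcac
Mcm6 promoter, chr1:128359706-128359885, minus strand: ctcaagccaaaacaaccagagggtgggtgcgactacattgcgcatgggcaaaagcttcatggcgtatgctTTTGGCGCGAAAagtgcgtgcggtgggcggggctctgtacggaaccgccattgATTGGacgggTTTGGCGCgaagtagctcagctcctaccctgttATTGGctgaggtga
Mcm5 promoter, chr8:75109329-75109508, plus strand: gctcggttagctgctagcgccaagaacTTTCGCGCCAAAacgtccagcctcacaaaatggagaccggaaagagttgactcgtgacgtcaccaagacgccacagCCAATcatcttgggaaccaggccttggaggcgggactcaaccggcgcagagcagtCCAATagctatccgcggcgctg
Pola1 promoter, chrX:93632156-93632335, minus strand: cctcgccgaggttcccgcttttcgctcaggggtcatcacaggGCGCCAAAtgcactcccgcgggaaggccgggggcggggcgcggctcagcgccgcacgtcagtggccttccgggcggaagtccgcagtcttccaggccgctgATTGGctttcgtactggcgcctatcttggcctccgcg
Cdk4 promoter, chr10:127063355-127063534, plus strand: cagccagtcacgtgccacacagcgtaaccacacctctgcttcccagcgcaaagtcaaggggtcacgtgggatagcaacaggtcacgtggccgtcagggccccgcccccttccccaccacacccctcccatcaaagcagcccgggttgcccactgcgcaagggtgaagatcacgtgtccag

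Matches in the G2/M genes shown lay at varied distances from the start. Ccnb2, which encodes cyclin B2, had CCAAT at positions -87, -54 and -21 relative to the start, and in the stretch shown a CHR match at -167. In Mki67 the matches within the stretch shown ran from -166 to -98. Kif11, a mitotic spindle motor, had its CCAAT match at -45 and its CHR match at -19, and Top2a, the topoisomerase that untangles sister chromatids, carried 4 CHR matches, at -179, -140, -120 and -23. In the S genes Mcm6 and Mcm5, subunits of the replicative helicase, pairs of E2F matches overlapped, at -110 and -106 in Mcm6 and at -153 and -149 in Mcm5, so that each pair appears as 1 run of capitals. Pola1, the catalytic subunit of DNA polymerase alpha, had its single E2F match at -138. Cdk4 had no match to the 3 motifs anywhere in its window.

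Over whole windows, an E2F match was present in 1 of 6 G1 members, 7 of 12 S members and 1 of 16 G2/M members, against 2.61% of all 27025 genes in the promoter table. The G1 member with a match was Cdk2 and the G2/M member was Cdk1, the kinase that drives mitosis. A CCAAT match was present in 2 of 6 G1 members, 9 of 12 S members and 14 of 16 G2/M members, against 41.1% of all genes. A CHR match was present in 0 of 6 G1 members, 2 of 12 S members and 12 of 16 G2/M members, against 21.7% of all genes. The 12 G2/M members with a CHR match all had a CCAAT match as well, a combination found in 9.65% of all genes. Both CDK inhibitors had a CCAAT match and neither had the others. A match is a description of letters and not of binding, and the E2F counts depended on the window: within 100 bases before the start they were 0 of 6, 1 of 12 and 0 of 16 in G1, S and G2/M, against 0.981% of all genes, and the CHR count of G2/M was 6 of 16, against 7.18% of all genes.

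**Figure D1:**
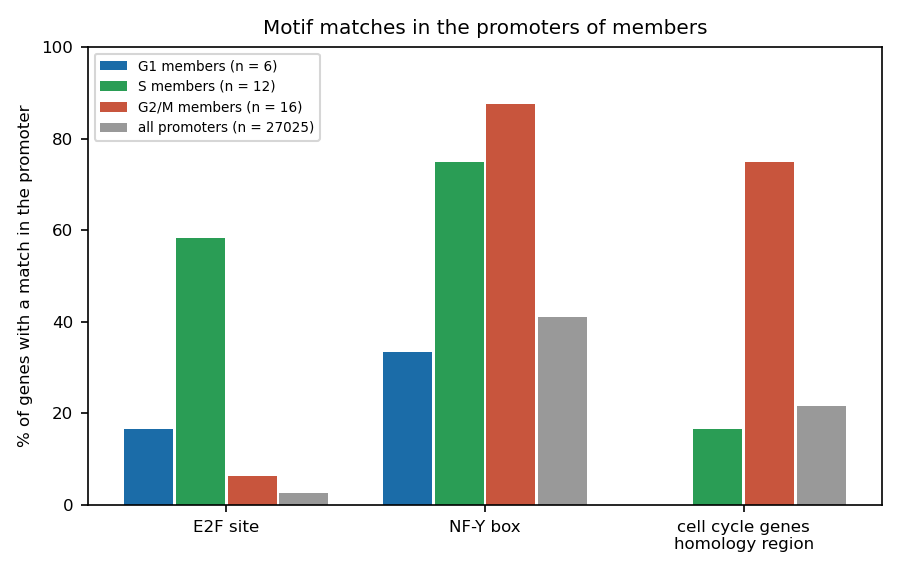
Share of genes (% of genes with a RefSeq promoter window) that hold each motif (the NF-Y box is CCAAT), for G1, S and G2/M members and for all promoters. E2F letters were most frequent in S members (58.3%) and CHR letters in G2/M members (75.0%), while no G1 member had a CHR match and so no bar.

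Among G1 genes, the kinases Cdk4 and Cdk6 stood above the reference and the E-type cyclins far below it. Cdk4 had 21.7, 17.7 and 17.4 TPM in replicates 1, 2 and 3, which was 1.51 ± 0.03 above the reference on the log2 scale (SD, n = 3; adjusted p = 7.43e-05, limma). Cdk6 had 18.6, 16.7 and 21.1 TPM, 1.50 ± 0.22 above (adjusted p = 0.000475, limma). Both kinases exceeded the reference in every library, but neither passed against a reference built from genes of at least 5 TPM, where the differences were 0.49 and 0.48. The exons of Cdk4 (chr10:127063534-127067920, mm10, plus strand) share 641 bases with Tspan31 on the opposite strand, itself at 24.1, 19.0 and 19.2 TPM, and no source used here says if reads were counted by strand, so the level of Cdk4 is uncertain. It is among 11 members whose exons overlap a protein-coding gene on the other strand, the rest being Ccnd1, Ccnd3, Ccne2, Cdk2, Rb1, Mcm7, Ccna2, Cdc20, Cdc25c and Ube2c.

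Rb1, the retinoblastoma protein gene, had 14.3, 10.5 and 10.8 TPM and lay 0.83 ± 0.09 above the reference, short of a call, which it reached in FPKM (1.06). It shares 488 exonic bases with Rcbtb2 on the opposite strand, at 42.6, 35.1 and 37.3 TPM. Ccnd1, encoding cyclin D1, had 6.10, 6.18 and 6.75 TPM, close to the reference (-0.04 ± 0.20; adjusted p = 0.702, limma). The other D-type cyclins were lower, with means of 4.46 ± 1.02 TPM for Ccnd2 and 3.23 ± 0.761 TPM for Ccnd3 (SD, n = 3 each). Ccnd3 was called below (-1.02 ± 0.21), a call that ended without replicate 3 (-0.90), with a pseudocount of 1 and in the FPKM values. E2f1, the founding E2F factor, averaged 3.27 ± 0.0577 TPM without a call (-0.98 ± 0.17), though it was called below in the second quantification (-1.53) and without replicate 2 (-1.02). Cdk2 averaged 3.00 ± 0.632 TPM with a call below that ended under the same pseudocount and in FPKM.

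Ccne1, encoding cyclin E1, had 0.61, 0.38 and 0.31 TPM, -3.68 ± 0.27 relative to the reference (adjusted p = 7.42e-05, limma). Ccne2, encoding cyclin E2, had 0.37, 0.36 and 0.31 TPM, -3.89 ± 0.13 (adjusted p = 3.28e-05, limma). All 3 D-type cyclins exceeded both E-type cyclins in every library, by a margin wider than the spread of either. In all, 2 of the 10 G1 members were called above, 4 below and 4 neither way, which is near the shares over all genes tested.

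Pcna, the sliding clamp of DNA polymerases, was the most abundant of the 45 genes and stood apart from the rest of the S list. Pcna (chr2:132249162-132253314, mm10, minus strand) had 69.9, 51.8 and 56.0 TPM, 3.15 ± 0.08 above the reference (adjusted p = 3.28e-05, limma). A processed pseudogene, Pcna-ps2, is 99.2% identical over 781 aligned bases and was given at most 0.66 TPM in any library. Cdt1, which loads the helicase onto origins, came next at 8.29, 5.98 and 6.72 TPM (0.08 ± 0.10). Mcm6 had 6.72, 5.11 and 5.75 TPM (-0.16 ± 0.07) and Mcm3 had 5.65, 3.99 and 4.65 TPM (-0.46 ± 0.12). These 3 licensing genes lay within 1 log2 unit of the reference and were not called, but Mcm3 was called below in the second quantification (-1.36).

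The remaining helicase subunits were called below the reference, with mean levels of 2.78 TPM for Mcm4, 2.58 TPM for Mcm2, 1.72 TPM for Mcm7 and 1.59 TPM for Mcm5. Of the nucleotide synthesis genes, Rrm1, the large subunit of ribonucleotide reductase, averaged 3.47 ± 0.652 TPM and was called below only in the second quantification (-1.40) and against the reference of at least 5 TPM. Its partner Rrm2, the small subunit, had 1.59, 0.69 and 0.94 TPM and was called below (-2.57 ± 0.41; adjusted p = 0.000469, limma). Rrm1 exceeded Rrm2 in all 3 libraries. Thymidylate synthase (Tyms, 1.14 ± 0.546 TPM) and Pola1 (1.37 ± 0.362 TPM) were also called below. Cdc6, an origin licensing factor, was the lowest S member with 0.41, 0.13 and 0.22 TPM (-4.31 ± 0.44; adjusted p = 0.000134, limma). In all, 1 of 13 S members was called above, 8 below and 4 neither way. Over all genes tested, 20.5% were called above and 50.6% below.

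The G2/M list was split between 2 abundant genes and a large group of low ones. Cenpa, the histone H3 variant of centromeres (chr5:30666777-30674830, mm10, plus strand), had 32.7, 18.6 and 17.4 TPM and was called above the reference (1.73 ± 0.35; adjusted p = 0.000986, limma). Mki67, which encodes the proliferation marker Ki-67 (chr7:135689784-135716361, mm10, minus strand), had 29.3, 20.9 and 17.5 TPM and was also called above (1.74 ± 0.25; adjusted p = 0.000405, limma). Neither passed against the reference of at least 5 TPM, where each difference was 0.71. Mad2l1, a spindle checkpoint protein, had 7.23, 5.47 and 8.03 TPM (0.06 ± 0.27). Cdk1 had 6.52, 3.75 and 3.57 TPM (-0.55 ± 0.32), and Top2a, described for its spread below, averaged 4.29 ± 1.73 TPM. Those 3 genes were not called, but Top2a was called below in the second quantification (-1.18).

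The other 15 of the 20 G2/M members were called below the reference, against 50.6% of all genes tested. They ranged from Ube2c, the ubiquitin-conjugating enzyme of mitotic exit, at a mean of 1.94 TPM down to Cdc25c, a phosphatase that activates Cdk1, at 0.27, 0.08 and 0.11 TPM (-4.78 ± 0.40; adjusted p = 8.56e-05, limma). Cdc20, the mitotic activator of the anaphase-promoting complex, had 0.77, 0.36 and 0.34 TPM (-3.56 ± 0.40; adjusted p = 0.000178, limma). Between them lay the spindle assembly factor Tpx2 (mean 1.63 TPM), survivin (Birc5, 1.54 TPM), the B-type cyclins and Ccna2, the kinases Aurka (1.21 TPM), Aurkb (0.717 TPM), Plk1 (0.597 TPM), Bub1 (0.573 TPM) and Bub1b (0.827 TPM), and the motors Cenpe (0.817 TPM) and Kif11 (0.730 TPM). In cells of mixed states, fewer cycling cells and less RNA per cycling cell cannot be told apart.

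**Figure D2:**
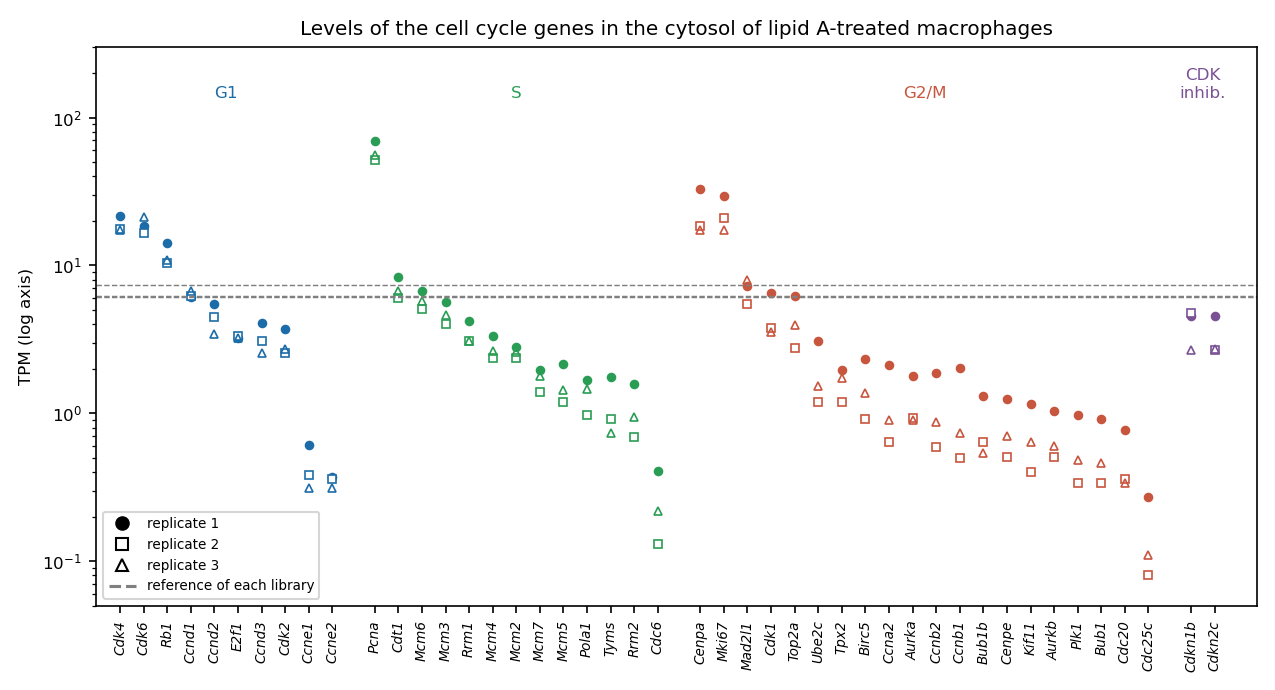
Level of each of the 45 genes in TPM (log axis) in replicates 1, 2 and 3, ordered by mean level within G1, S, G2/M and the CDK inhibitors, with the reference of each library as dashed lines. Pcna reached 69.9 TPM, while the lowest values belonged to Cdc25c and Cdc6. Replicate 1 was the highest library for 7 of 10 G1, 13 of 13 S and 19 of 20 G2/M genes. In TPM that held for 83.6% of protein-coding genes that averaged 1 TPM or more.

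The inhibitors were present at modest levels. Cdkn1b, encoding p27, had 4.52, 4.73 and 2.70 TPM (-0.74 ± 0.41; -1.18 and called below in the second quantification), and Cdkn2c, encoding p18, had 4.54, 2.66 and 2.73 TPM (-1.003 ± 0.27; adjusted p = 0.00273, limma). The call of Cdkn2c below the reference sat at the minimum difference of 1 and ended without replicate 2 (-0.90) or replicate 3 (-0.92), with a pseudocount of 1 (-0.83) and in FPKM (-0.79). Of 6 further CDK inhibitors, Cdkn1a, encoding p21, was far higher than either, with 426, 345 and 291 TPM (5.72 ± 0.17 above the reference; adjusted p = 3.17e-05, limma). Cdkn1c, encoding p57, had 9.46, 13.4 and 9.78 TPM, and Cdkn2a was the lowest at 0.08, 0.03 and 0.15 TPM, under the minimum for testing. Of the 5 tested, 1 was called above and 3 below, against 20.5% and 50.6% of all genes tested.

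Set side by side, the phases stood in the order G1, S, G2/M. The median difference from the reference over the 10 G1 members was -0.64, -0.63 and -0.88 log2 units in replicates 1, 2 and 3. Over the 13 S members it was -1.37, -1.33 and -1.23, and over the 20 G2/M members it was -1.89, -3.06 and -2.68. The order held in each library. The S median minus the G1 median averaged -0.59 ± 0.21, the G2/M median minus the G1 median -1.82 ± 0.59, and the G2/M median minus the S median -1.23 ± 0.64 (SD, n = 3 libraries). For comparison, the median over all 21992 protein-coding genes, silent ones included, was -4.91 ± 0.10. The medians of G1 and S differed little between libraries, whereas that of G2/M was higher in replicate 1 than in the others. With 3 libraries the smallest two-sided exact sign-flip p is 0.25, and no test was made of these medians.

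**Figure D3:**
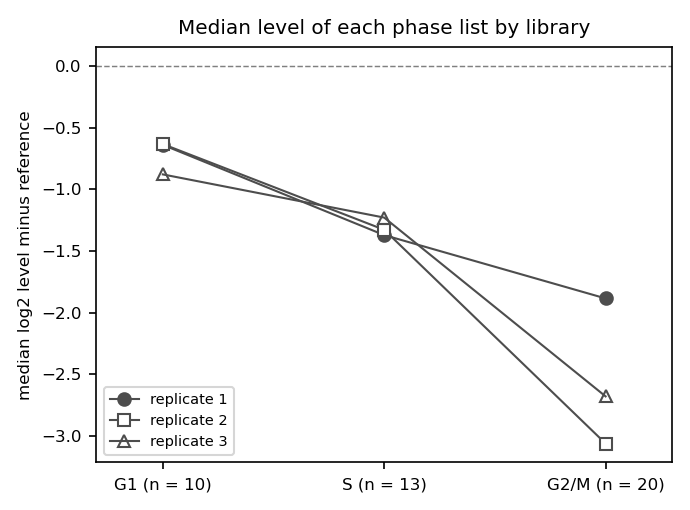
Median log2 level minus the library reference (log2 units) for the G1, S and G2/M members, with a line for each of the 3 libraries and the reference at 0. The lines of the 3 libraries lie close together at G1 and S and part at G2/M, where replicate 1 is at -1.89 and replicate 2 at -3.06.

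The spread between the replicate libraries was widest in the G2/M list, where the median SD of log2 CPM was 0.50, against 0.17 in G1 and 0.17 in S. TPM was highest in replicate 1 for 83.6% of those protein-coding genes, so the libraries were compared in TMM-scaled CPM, which sets counts against library size and brought that share to 40.2%. On that scale replicate 1 was the highest library for 6 of 10 G1 members, 10 of 13 S members and 18 of 20 G2/M members. The 2 G2/M exceptions, Mad2l1 and Tpx2, were highest in replicate 3. Replicate 2 was the lowest library for 3 of 10 G1, 11 of 13 S and 16 of 20 G2/M members. It was the lowest for 2077 of 8746 protein-coding genes that averaged 1 TPM or more.

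Replicate 1 over the mean of replicates 2 and 3 had a median fold of 1.09 in G1 members, 1.12 in S members and 1.70 in G2/M members, against 1.00 in the protein-coding genes. Folds of the G2/M members ran from 0.861 for Mad2l1 to 2.57 for Ccnb1. Without Mki67, Cenpa and Mad2l1, the 3 most abundant of them, the median over the 17 left was 1.82-fold. Protein-coding genes that averaged 1 to 3 TPM had a median of 0.996-fold, although most of these 17 members lay below or above that range.

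The 3 members with the widest spread between libraries were cyclins. Ccnb1, encoding cyclin B1 (chr13:100778650-100786570, mm10, minus strand), had 7.0, 2.31 and 3.13 CPM in replicates 1, 2 and 3, an SD of 0.82 on the log2 scale. Ccna2 (chr3:36564865-36572150, mm10, minus strand) had 9.74, 3.56 and 4.93 CPM (SD 0.74), and Ccnb2 (chr9:70407692-70421547, mm10, minus strand) had 4.11, 1.58 and 2.29 CPM (SD 0.68). Replicate 1 was the highest for each by more than the distance between the other libraries. In TPM the same genes had 2.04, 0.50 and 0.73 for Ccnb1, 2.12, 0.64 and 0.90 for Ccna2, and 1.88, 0.59 and 0.87 for Ccnb2. The exons of Ccna2 overlap Exosc9 on the opposite strand by 510 bases, and Exosc9 had 7.19, 6.06 and 6.38 TPM.

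Each gene with at least 10 counts in every library was then tested for variation beyond the trended dispersion with the goodness-of-fit function of edgeR. All 45 members had enough counts, and 0 of them passed after Holm adjustment, against 0.908% of 12330 genes. At an unadjusted p under 0.05 there were 8 members, against 6.03% of all genes, namely Ccna2, Ccnb1, Cenpa, Cenpe, Kif11, Mad2l1 and Top2a of G2/M, and Cdkn1b. With Benjamini-Hochberg adjustment, which called 2.29% of all genes, Top2a (adjusted p = 0.00623, edgeR) and Ccna2 (adjusted p = 0.0167, edgeR) passed. Without replicate 3, the same 2 genes passed after Holm adjustment as well (0.00931 for Top2a and 0.00387 for Ccna2, edgeR). That run kept only replicates 1 and 2, the highest and lowest libraries for both genes. Its share over all genes is not reported here, so these calls cannot be set against one. Top2a, named after its value was seen, had 38.0, 18.7 and 27.1 CPM in replicates 1, 2 and 3.

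**Figure D4:**
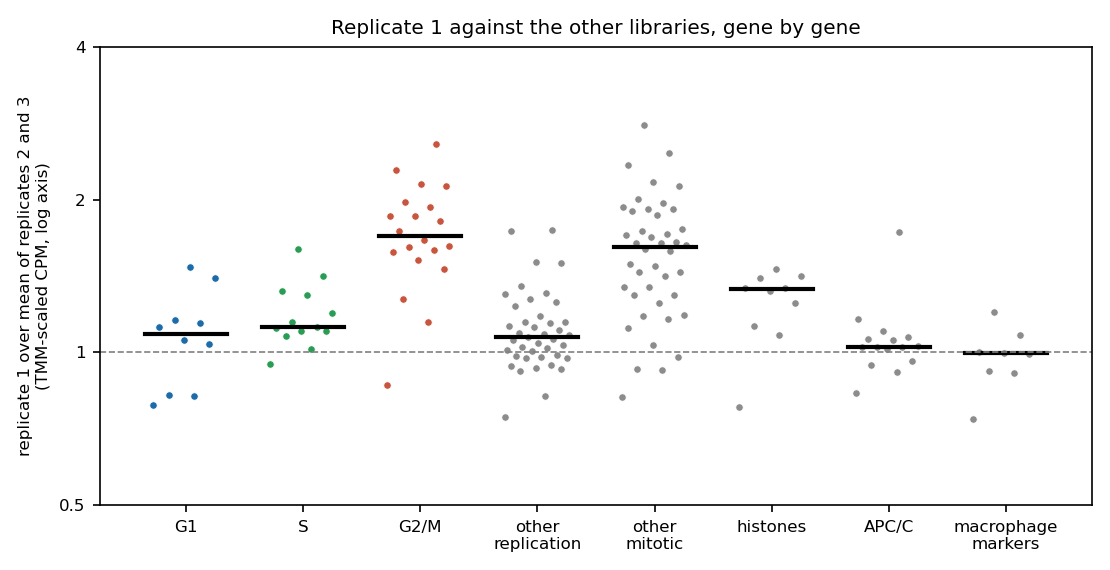
CPM in replicate 1 over the mean of replicates 2 and 3 (log axis), with a point for each gene and a line at the median of each list. The medians lie at 1.70 for G2/M members and 1.62 for other mitotic genes, against 1.09 for G1 members, 1.12 for S members and 0.996 for macrophage markers.

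Genes of the same pathways outside the 45 were described in the same way. Of 42 other mitotic genes, 37 were highest in replicate 1, with a median fold of 1.62, against 40.2% of protein-coding genes that averaged 1 TPM or more. Among the 42, 10 had an unadjusted p under 0.05 for excess variation in edgeR, against 6.03% of all genes. The median was 1.33-fold over 10 replication-dependent histone genes, 1.07-fold over 41 other replication genes and 1.03-fold over 15 genes of the anaphase-promoting complex, of which 10 were highest in replicate 1. Among the 8 macrophage markers 1 was highest in replicate 1, with a median of 0.996-fold. The summed CPM of the progenitor markers was 6.55, 6.12 and 6.62 in replicates 1, 2 and 3, and that of the neutrophil markers 41.1, 34.5 and 49.7. Within the progenitor list the genes differed in order, 3 of 8 being highest in replicate 1 and 5 in replicate 3, and Kit, the largest part of the sum, had 4.56, 3.77 and 2.75 CPM. Of the 8 neutrophil markers, 6 were highest in replicate 3, against 33.1% of protein-coding genes that averaged 1 TPM or more. Among those 8 markers, 3 had an unadjusted p under 0.05 for excess variation in edgeR, against 6.03% of all genes. The part of such cells in the spread was not tested. Library depth was lowest in replicate 1, and its part in the spread was not tested.

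In level, the other mitotic genes resembled the low G2/M members: 36 of 41 tested were called below the reference and 0 above, at adjusted p under 0.05 in limma. The shares over all genes tested were 50.6% below and 20.5% above. Pttg1, encoding securin, was the highest of them at 13.6, 10.5 and 8.71 TPM, followed by the checkpoint gene Bub3 at 7.20, 6.46 and 6.42 TPM, and Sgo1, the shugoshin that guards cohesin, was the lowest at 0.10, 0.07 and 0.06 TPM. Of 40 other replication genes tested, 32 were called below and 0 above. Rfc2, a clamp loader subunit, led with 13.3, 9.73 and 9.66 TPM, followed by Rpa1 of the single-strand binding complex with 8.97, 5.74 and 6.21 TPM, while Orc1 of the origin recognition complex was the lowest with 0.12, 0.06 and 0.06 TPM.

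Of 18 pocket protein, E2F and DREAM genes, 12 were called below and 0 above, against 50.6% of all genes tested called below. Rbbp4, a shared subunit of DREAM and chromatin complexes, had 11.6, 8.41 and 10.1 TPM and E2f4, the main E2F of resting cells, had 7.67, 6.90 and 7.16 TPM, both near the reference, while the repressor E2f7 was the lowest with 0.23, 0.09 and 0.11 TPM. Of 15 genes of the anaphase-promoting complex, 4 were called above, which is near the 20.5% of all genes tested, and 3 below. Its ubiquitin-conjugating partner Ube2s had 29.7, 24.9 and 27.4 TPM and the subunit Anapc13 had 23.1, 18.8 and 18.8 TPM, whereas its inhibitor Fbxo5, known as Emi1, had 0.26, 0.13 and 0.11 TPM. Of the 10 histone genes, 4 were called below and 0 above, from Hist1h4d (7.78, 5.39 and 6.39 TPM) and Hist1h4b (6.48, 5.23 and 7.04 TPM) to Hist1h2ae (2.19, 1.22 and 1.39 TPM). In these 4 lists without a call above, no gene exceeded the reference by 1 log2 unit, so the counts above are also 0 at an unadjusted p under 0.05.

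A gene's TPM adds up transcripts of different annotated kinds, and for Tyms and Cenpa most of it was on average not protein-coding. In the first quantification, protein-coding transcripts carried over 90% of the TPM in 33 of the 45 members. They carried under 70% in 6 members (Tyms, Cenpa, Cdk1, Mad2l1, Mcm3 and Top2a). The second quantification gave 29 members over 90% and 8 under 70%. Mcm3 was not among those 8, while Pola1 (63.9%), Cdc6 (64.3%) and Cdc25c (39.4%) were. Cenpa, one of the abundant G2/M genes, had 38.9, 40.7 and 38.9% of its TPM in protein-coding transcripts in replicates 1, 2 and 3, and 60.7, 58.9 and 60.0% in transcripts annotated for nonsense-mediated decay. The SD of these shares over libraries was 1.01 and 0.915 percentage points, and the second deposited quantification gave 33.9 ± 1.03% protein-coding (SD, n = 3). Tyms had 23.8 ± 2.35% protein-coding and 66.2 ± 10.5% in decay transcripts, at a level of about 1 TPM. In the second quantification decay transcripts took 62.9, 71.6 and 32.5% of Tyms in replicates 1, 2 and 3, and protein-coding ones exceeded them in replicate 3 at 44.7%.

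Retained-intron transcripts took 45.4 ± 3.95% of Cdk1, 37.3 ± 1.83% of Mad2l1 and 37.0 ± 0.959% of Mcm3 (SD, n = 3 each). For Cdk1 and Mad2l1 the second quantification was close, with 41.2 ± 6.20% and 39.5 ± 1.12%, but for Mcm3 it gave 13.2 ± 5.40%, outside the spread of the first. Top2a had 34.3 ± 3.92% in other kinds of transcript. All annotated transcripts of E2f1, Mcm4, Ccnb2, Mki67, Birc5, Ube2c, Cdkn1b and Cdkn2c are protein-coding. That share was therefore fixed by the annotation for these genes, which are among the 33 over 90%, and says nothing about other forms. Assignment of reads to transcripts that share most of their exons is an estimate, and these shares are given as such.

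**Figure D5:**
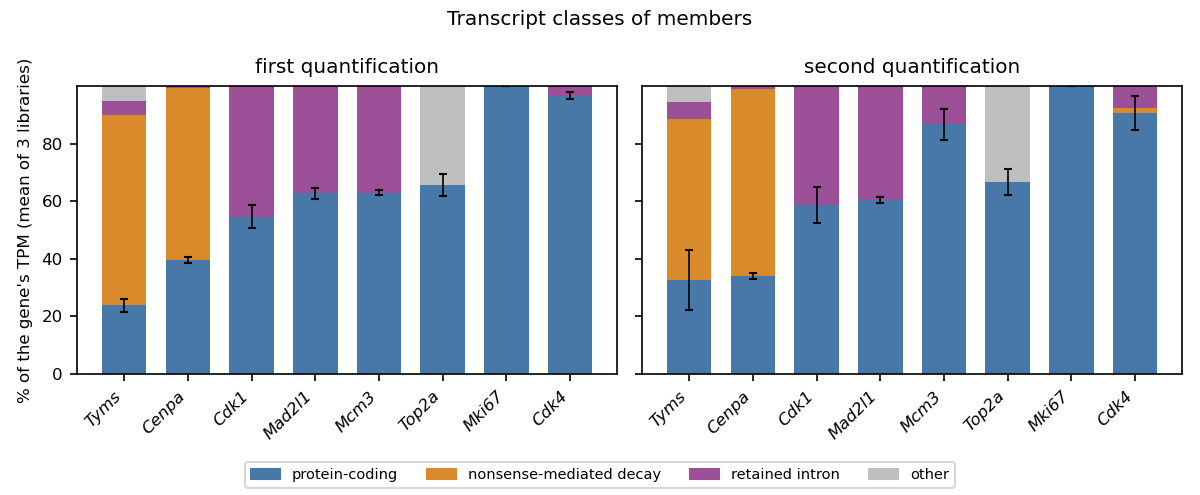
Share of each gene's TPM (%, mean of 3 libraries) by annotated kind of transcript, in the first and the second quantification, with error bars for the SD of the protein-coding share. On average Cenpa and Tyms lie mostly in decay transcripts in both, and Mcm3 differs between the quantifications (63.0 against 86.8% protein-coding). Mki67 has only protein-coding transcripts in the annotation.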

How the data were processed

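The members and the lists of other genes were chosen with earlier results of these data known. Per the text files deposited with the tables, the authors aligned reads to mm10 and used the GENCODE M21 annotation. No source used here names the aligner or the quantifiers. Per the file headers, the first quantification holds expected counts, TPM and FPKM for each gene and transcript. The second, which the deposited text files trace to the reads themselves, holds estimated counts and TPM for each transcript. Deposited FPKM values served only in an alternative. Of 81881 entries in a gene table, 55536 were annotated genes, summed by symbol to 55418, and all others were left out.

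Levels were tested in R 4.3.3 by the one-sample moderated test of limma 3.58.1, with a pseudocount of 0.1 TPM and Benjamini-Hochberg adjustment over the 13327 symbols that averaged 0.1 TPM or more. Variation was tested with edgeR 4.0.16 on expected counts rounded to whole numbers, scaled by TMM, for genes that reached 10 counts in each library. log2 CPM used a prior count of 2. DESeq2 1.42.0 size factors were an alternative scaling. A count of 0 would allow up to 3 counts, equal to 0.0891, 0.0628 and 0.0506 CPM in replicates 1, 2 and 3. These floors cover counting error alone, as reads lacking molecular identifiers may be PCR copies. Chi-square per degree of freedom was 102 between replicates 1 and 2, 162 between replicates 1 and 3, and 46.2 between replicates 2 and 3. It was thus larger for both pairs with replicate 1, and no library duplicated another. Every member is named, with each library's value for the 4 highest and 2 lowest of each phase, the CDK inhibitors and the 3 with the widest spread, and for the 2 highest and the lowest of each other pathway list. Near-identical copies were sought with minimap2 2.31-r1302 (at least 200 aligned bases, 95% identity). The level and variation tests were run on simulated data with fixed spreads. Those runs do not show how well extra variation would be found in members with low counts.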

Additional observations from a re-analysis of the deposited data

How the results depend on the processing

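No paired analysis was possible because the replicate numbers belong to 1 group. The order G1, S, G2/M of the medians held in every alternative run. The G1 median was -1.75 with a reference of at least 5 TPM, -0.50 in FPKM and -1.07 in the second quantification. The S median was -1.08 with a pseudocount of 1, -2.34 with the reference of at least 5 TPM, -1.11 in FPKM, -1.83 in the second quantification and -1.58 with Ccna2 moved to S, which made S minus G1 -0.86. The G2/M median was -1.85 with a pseudocount of 1 and -3.57 with the reference of at least 5 TPM. Leaving out each library in turn gave -0.78 to -0.63 for G1, -1.34 to -1.28 for S, -2.89 to -2.26 for G2/M, -0.71 to -0.52 for S minus G1, -2.11 to -1.52 for G2/M minus G1 and -1.59 to -0.98 for G2/M minus S. Leaving out members that overlap a protein-coding gene on the opposite strand, an alternative chosen after seeing the data like the one without Mki67, Cenpa and Mad2l1, gave -0.77, -1.26 and -2.47 for G1, S and G2/M, and the other gave -2.69 for G2/M.

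With the reference of at least 5 TPM, 0 G1 and 0 G2/M members were called above and 7 G1 members below. With a pseudocount of 1, and in FPKM, 2 G1 members were called below. Without each library in turn, 3 to 5 G1 members and 14 to 15 G2/M members were called below. Cdc25c fell under the minimum for testing without replicate 1. Members called for variation numbered 2 with Benjamini-Hochberg adjustment, and 0 to 2 when each library was left out in turn. The shares of all genes called above or below under the alternatives are not reported here, nor are those called for variation without each library. Calls gained or lost there show how the members' calls depend on the setting and are no result about the members against other genes.

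Signs changed for 5 members, among them Ccnd1 (-0.11 to 0.05 when each library was left out) and Mad2l1 (-0.08 to 0.19). Ccnd1 was at 0.18 in FPKM and 0.05 without replicate 1, Mcm6 at 0.06 in FPKM, Rb1 at -0.19 and Cdt1 and Mad2l1 at -0.94 and -0.97 with the reference of at least 5 TPM, Cdt1 at -0.42 and Mad2l1 at -0.31 in the second quantification, and Mad2l1 at -0.08 without replicate 3. Within 100 bases before the start, CCAAT was in 1 G1 member, CHR in 1 S and 6 G2/M members, and E2F in 0 G1, 1 S and 0 G2/M members, a shorter window by construction. The reference of at least 5 TPM moves every gene down alike by construction, and with it 9 members gained a call below. In the second quantification E2f1 (-1.53), Mcm3 (-1.36), Rrm1 (-1.40), Top2a (-1.18) and Cdkn1b (-1.18) gained a call below, and in FPKM Rb1 (1.06) gained a call above. The cause of the other shifts was not tested. Depth limits the lowest members most, since Cdc25c had 25, 13 and 22 counts in replicates 1, 2 and 3.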
